A study of Mus musculus with 6 samples.

Results

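The integrated stress response was examined in the liver of DUhTP (marathon) mice through 10 of its target genes: the transcription factors Atf4, Atf5, Atf3 and Ddit3, and the effectors Trib3, Asns, Psat1, Sesn2, Chac1 and Fgf21. Every probe set whose only gene symbol in the array annotation was one of these genes was taken, which gave 16 of the 22626 tested probe sets and 10 of 12393 genes. The rule uses gene names only, but the genes were picked when earlier results of these arrays were known. DUhTP mice are a non-inbred line bred over many generations for high treadmill performance, and DUC mice are the unselected control line from the same crossbred founders. Liver RNA of untrained males aged 70 days (10 weeks) was hybridized to 3 Affymetrix mouse genome arrays for DUhTP and 3 for DUC. The methods call each array a pool of animals and the labels a single mouse, so p-values measure only the spread between arrays. Each line is 1 breeding population, so selection and drift cannot be told apart.

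The integrated stress response is a pathway by which cells slow protein synthesis. Kinases that sense amino acid shortage, misfolded protein in the endoplasmic reticulum (ER), lack of haem or viral RNA phosphorylate the translation factor eIF2, and the mRNA of the transcription factor ATF4 is then translated more, not less. ATF4 and its partners switch on genes of amino acid synthesis and uptake, further transcription factors such as CHOP (gene Ddit3), and feedback inhibitors such as TRIB3. In liver the pathway answers changes in dietary protein and sulfur amino acids, and the hormone FGF21 is 1 of its secreted products. Because ATF4 is regulated largely through translation, its mRNA need not follow its activity.

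Among the 10 genes the difference between the lines passed the test at Trib3 alone, and the genes lay on both sides of 0. Trib3 mRNA was about 2.3 times less abundant in DUhTP than in DUC mice on both of its probe sets. Ddit3 mRNA read 1.64 times higher in DUhTP mice, without overlap between the lines, and missed the threshold. The other 8 genes did not pass the test on any probe set. Intensities are PLIER summaries on a linear scale in arbitrary units, and they are comparable between arrays for 1 probe set but not between probe sets. They were logged to base 2 and compared in limma, with p adjusted over all 22626 probe sets by the Benjamini Hochberg algorithm. A probe set was called at an adjusted p under 0.05. A negative fold change (FC) means lower abundance in DUhTP mice. Of the 16 probe sets 2 were called, both lower and both of Trib3, where 2.41% of all probe sets were called, 1.05% lower and 1.36% higher. Of the 10 genes 1 was called, where 3.32% of all genes had at least 1 called probe set. At an unadjusted p under 0.05, 3 of the 16 probe sets were lower and 1 higher, against 11.3% and 9.8% of all probe sets (21.1% in either direction). With 16 added to every intensity before the log, a setting that damps noise among dim probe sets, 2 were called lower and 1 higher, against 4.7% and 3.92%. The log2 fold change was below 0 for 10 of the 16 and for 51.9% of all probe sets. The median log2 fold change was -0.20 over the 16 probe sets, -0.04 over the brightest probe set of each gene and -0.02 over all probe sets tested. Without overlap between the lines 4 of the 16 lay lower and 1 higher in DUhTP mice, and of all probe sets 15.8% lay lower and 13.6% higher in this way (29.4% together). In bulk liver a smaller share of a cell type and less RNA per cell cannot be told apart.

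**Figure D1:**
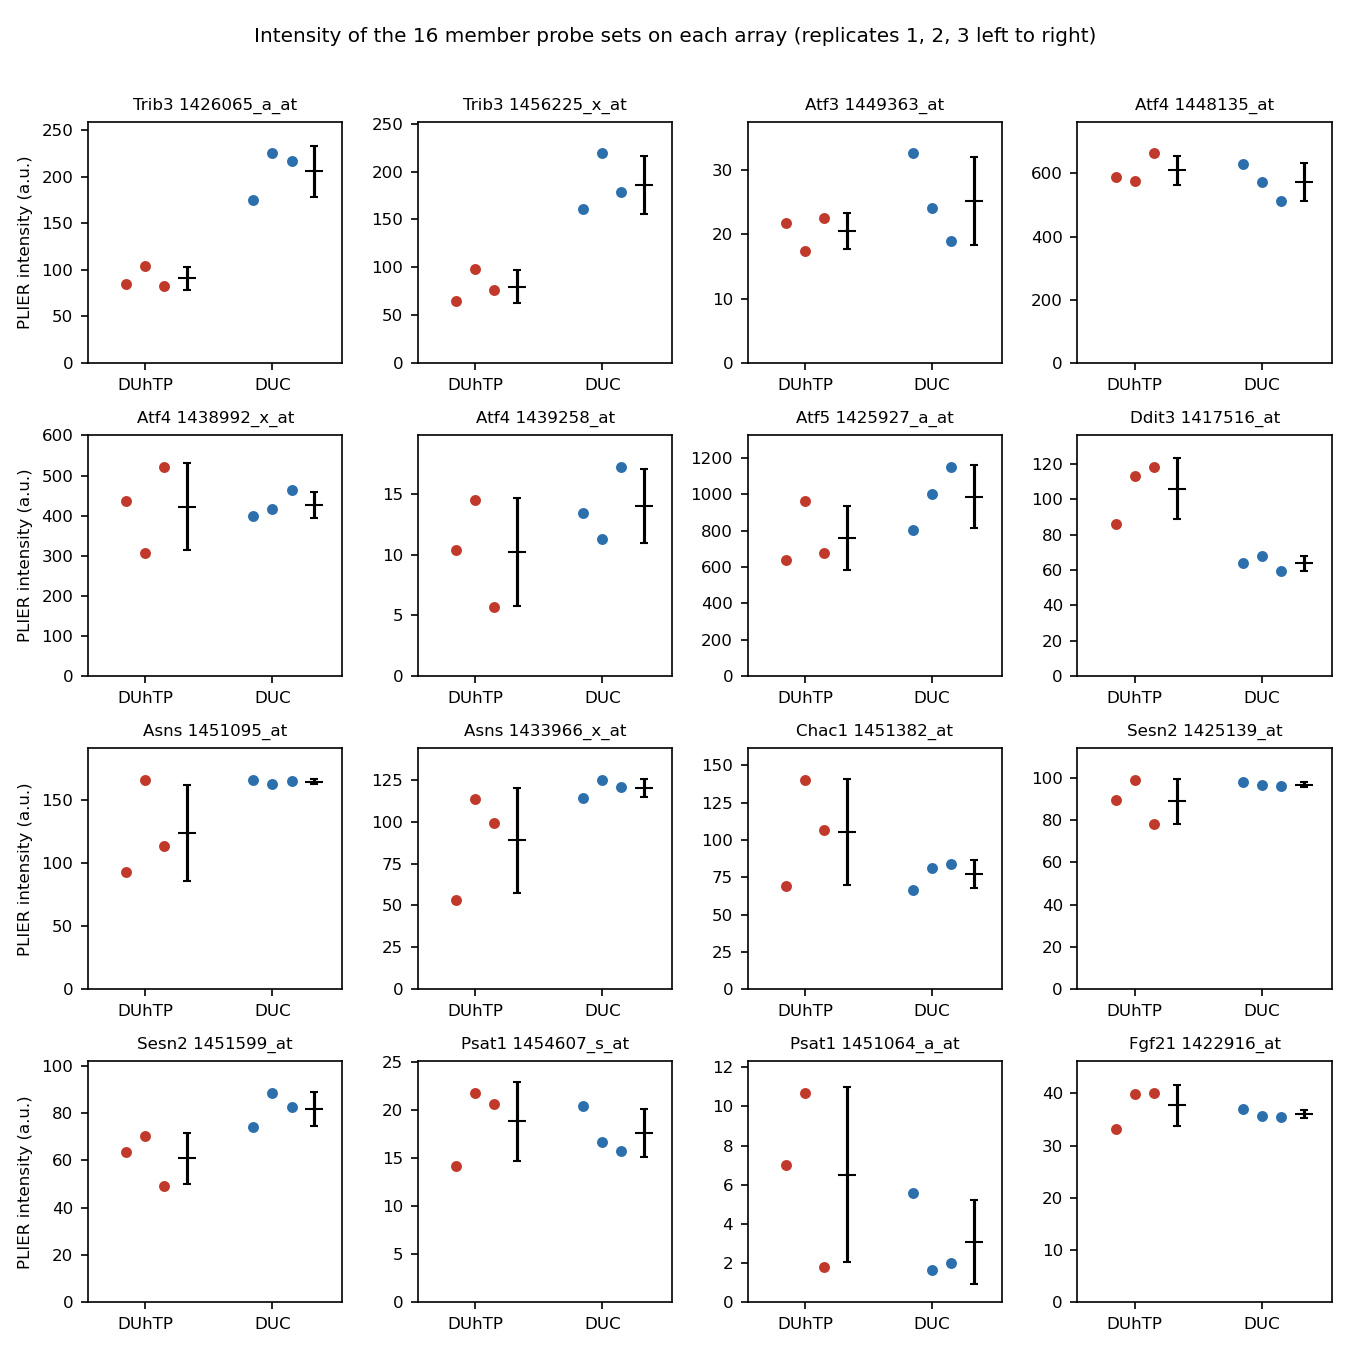
PLIER intensity (arbitrary units, linear axes from 0) of each of the 16 probe sets on the 3 DUhTP arrays (red) and the 3 DUC arrays (blue), with the mean and SD of each line in black. The points of the lines are far apart for both Trib3 probe sets, where DUhTP arrays reached at most 105 and DUC arrays at least 161, while 11 of the 16 probe sets overlap.

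Trib3 encodes a tribbles pseudokinase that is induced by ATF4 and CHOP, restrains both, and in mouse liver binds the insulin signalling kinase AKT. The gene lies at chr2:152337425-152344060 of GRCm38.p6. On probe set 1426065_a_at its intensity was 84.8, 105 and 82.9 in DUhTP replicates 1, 2 and 3, against 175, 225 and 217 in the DUC arrays. The highest DUhTP array thus read well below the lowest DUC array. The mean was 90.8 ± 12.1 in DUhTP and 206 ± 27.0 in DUC mice (SD, 3 arrays a line), an FC of -2.27, or -1.18 ± 0.16 as a log2 fold change and its standard error (95% interval -1.57 to -0.79, limma adjusted p = 0.0314). Probe set 1456225_x_at read 64.8, 98.3 and 76.7 in DUhTP mice, against 161, 219 and 178 in DUC mice. Again no array of a line reached into the range of the other. Its FC was -2.34, with a log2 fold change of -1.23 (standard error 0.20, 95% interval -1.73 to -0.73, limma adjusted p = 0.0458). The ending of this probe set marks probes that can match other transcripts. Over the 6 arrays the log2 intensities of both probe sets correlated at r = 0.98, a value that includes the line difference, and at 0.85 after the mean of each line was subtracted.

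The size of the Trib3 difference was stable and its call was not. Without any 1 of the 6 arrays the log2 fold change of 1426065_a_at stayed between -1.29 and -1.11, while its adjusted p was between 0.0576 and 0.135 and the call was lost each time, whichever DUhTP or DUC replicate was left out. The same held for 1456225_x_at, with -1.39 to -1.09 and an adjusted p of 0.0624 to 0.159. Calls fell across the whole array as well, from 546 probe sets to between 1 (without DUC replicate 2) and 122 (without DUhTP replicate 2). With 16 added Trib3 passed on both probe sets (FC -2.07 and -2.11, adjusted p = 0.00151 and 0.00313), and it kept both calls without any 1 array (adjusted p up to 0.0146 and 0.0217). With 16 added 8.62% of all probe sets passed, against 2.41% without.

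Markers of exocrine pancreas were lower in the DUhTP arrays, as Trib3 was. Their 12 measured genes, none of them at 0, summed to 4594, 1076 and 2920.4 in DUhTP replicates 1, 2 and 3, against 5323, 10427 and 7864 in the DUC arrays. In limma none of the 12 passed without a constant, 7 were lower at an unadjusted p under 0.05 and 6 were lower with 16 added. Among all genes 27.4% had an unadjusted p under 0.05 in either direction, and 6% were lower with 16 added. Prss2, a trypsinogen, read 492, 53.9 and 275 in DUhTP mice, against 708, 1214 and 949.8 in DUC mice. Ctrb1, a chymotrypsinogen, read 460.1, 36.0 and 186 in DUhTP mice, against 754, 1757 and 1318 in DUC mice. Cela1, an elastase and one of the 3 brightest of these markers, had a log2 fold change of -0.12. The 6 calls with 16 added were each kept in 2 of 6 omissions of an array. Within the DUhTP arrays Trib3 was highest on replicate 2, where the sum of these markers was lowest, and within the DUC arrays both were lowest on replicate 1 and highest on replicate 2. Their part in the Trib3 difference was not tested.

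**Figure D2:**
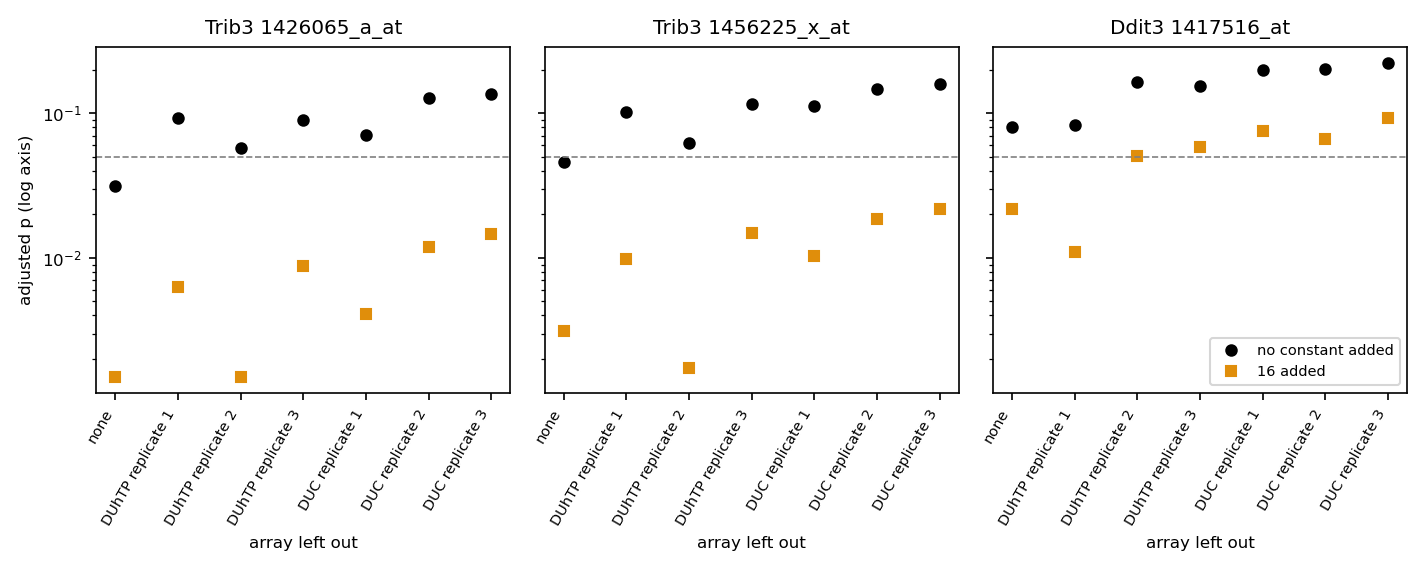
Adjusted p (log axis) of both Trib3 probe sets and of Ddit3 with no array left out and with each of the 6 arrays left out, without a constant (black circles) and with 16 added to every intensity (orange squares); the dashed line is 0.05. Both Trib3 probe sets lie above the line without any 1 array when no constant is added, and below it in every case with 16 added, while Ddit3 stays below only with 16 added and all arrays or without DUhTP replicate 1.

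Among the transcription factors, Atf4 mRNA showed no difference past the test on any of 3 probe sets. ATF4 is the main transcription factor of the response. The brightest probe set, 1448135_at, read 589, 577 and 663 in DUhTP mice, against 630.4, 574 and 512 in DUC mice, and the lines overlapped. Its log2 fold change was 0.09 (95% interval -0.22 to 0.41, adjusted p = 0.730). Probe set 1438992_x_at read 437, 307 and 522 in DUhTP mice, against 399.9, 416 and 464 in DUC mice. Here the DUhTP arrays lay on both sides of all DUC arrays, with a log2 fold change of -0.05 (95% interval -0.57 to 0.48). The dim 1439258_at stayed between 5.66 and 14.5 in DUhTP and between 11.3 and 17.2 in DUC mice (log2 fold change -0.54, adjusted p = 0.459). Unlike those of Trib3, the probe sets of Atf4 did not follow each other across the 6 arrays, with r between -0.78 and 0.19 for the 3 pairs.

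Atf5, a relative of ATF4 that is also translated more under stress and is abundant in liver, read 639.7, 962 and 676 in DUhTP mice, against 806, 1003 and 1152 in DUC mice. Only DUhTP replicate 2 reached into the DUC range, and the log2 fold change of -0.39 did not pass (95% interval -0.92 to 0.15, adjusted p = 0.366). Atf3, a stress and immediate early gene that acts mostly as a repressor, was dim at 21.7, 17.4 and 22.5 in DUhTP mice, against 32.5, 24.1 and 18.9 in DUC mice. The lines overlapped, and the log2 fold change was -0.27 (95% interval -0.83 to 0.30, adjusted p = 0.554).

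Ddit3 encodes CHOP, a transcription factor that promotes cell death when stress lasts and that induces Trib3 together with ATF4. Its single probe set, 1417516_at, read 86.3, 113 and 119 in DUhTP mice, against 64.1, 68.3 and 59.8 in DUC mice. All DUhTP arrays lay above all DUC arrays, in the direction opposite to Trib3. The mean was 106 ± 17.3 in DUhTP and 64.0 ± 4.25 in DUC mice (SD, 3 arrays a line), an FC of 1.64 and a log2 fold change of 0.72 (standard error 0.16, 95% interval 0.33 to 1.1, limma adjusted p = 0.0807). With 16 added to the intensities Ddit3 passed (FC 1.52, adjusted p = 0.0217), where 3.92% of all probe sets were called higher. That call held without DUhTP replicate 1 (adjusted p = 0.0110) and was lost without DUhTP replicate 2 or 3 or any DUC replicate (up to 0.0936). Macrophage markers were higher in DUhTP mice, as Ddit3 was. Their 10 genes, none of them at 0, summed to 4594, 5768 and 4946 in DUhTP mice, against 4189.6, 3127 and 3462 in DUC mice. Of these 1 rose without a constant, Clec4f of Kupffer cells (FC 2.18, adjusted p = 0.0320). With 16 added 6 were higher, among them Csf1r and C1qa, and 1 lower, while Cd5l had a log2 fold change of -0.01. Among all genes 1.92% were higher without a constant, and with 16 added 5.31% were higher and 6% lower. Without any 1 array the call of Clec4f was lost when no constant was added. Their part in the Ddit3 difference was not tested.

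**Figure D3:**
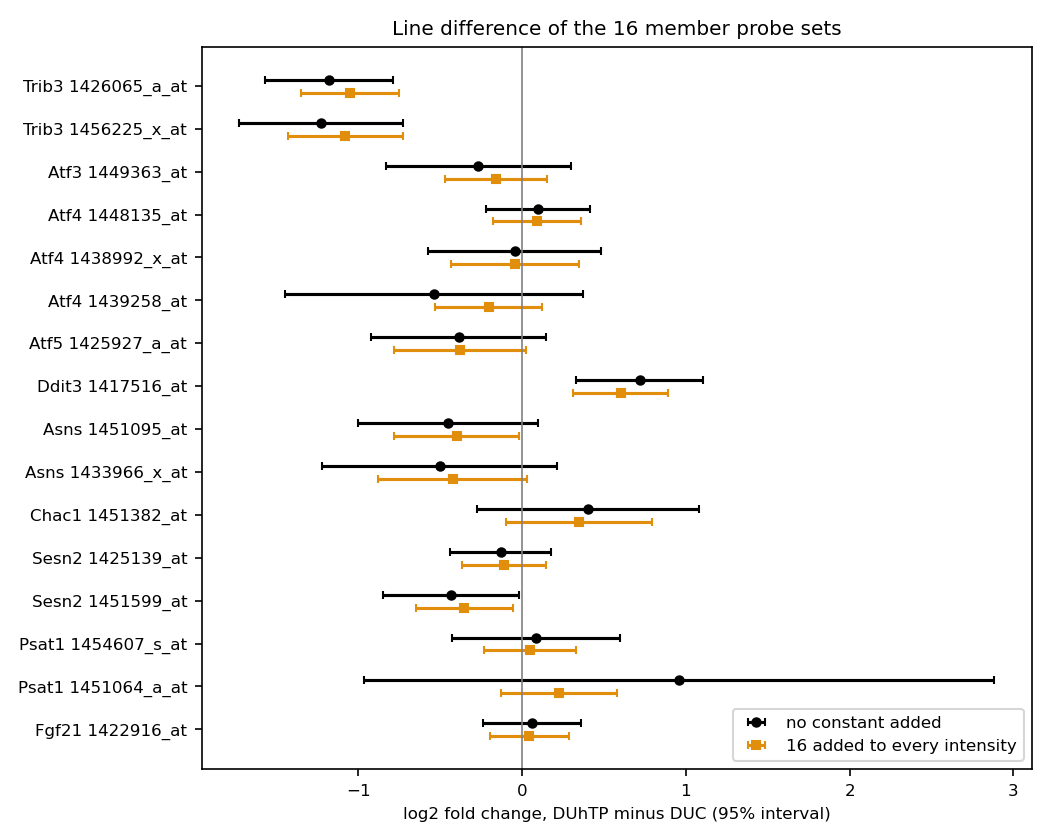
Log2 fold change, DUhTP minus DUC, of each of the 16 probe sets with its 95% interval from limma, without a constant (black circles) and with 16 added to every intensity (orange squares). In both settings the intervals of both Trib3 probe sets and of Sesn2 probe set 1451599_at lie below 0, and that of Ddit3 above 0. The interval of Asns probe set 1451095_at lies below 0 only with 16 added. The dim Psat1 probe set 1451064_a_at spans -0.96 to 2.88 without a constant.

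Of the amino acid enzymes, Asns makes asparagine and is a classical ATF4 target. On 1451095_at it read 92.8, 166 and 113 in DUhTP mice, against 166, 163 and 165 in DUC mice. The DUC arrays were nearly equal, while DUhTP replicate 2 matched them and DUhTP replicates 1 and 3 lay below. The SD was 37.9 around a mean of 124 in DUhTP and 1.80 around 165 in DUC mice, and the log2 fold change of -0.45 did not pass (95% interval -1.0 to 0.10, adjusted p = 0.317). Probe set 1433966_x_at had the same order of DUhTP arrays, at 53.5, 114 and 99.1, against 114, 125 and 121 in DUC mice. Here all DUhTP arrays lay below all DUC arrays, by a narrow margin at DUhTP replicate 2, and the log2 fold change was -0.50 (95% interval -1.22 to 0.21, adjusted p = 0.382). Over the 6 arrays both Asns probe sets correlated at r = 0.91, and at 0.85 within lines. Without DUhTP replicate 2 the log2 fold change of 1451095_at was -0.68 (adjusted p = 0.106), and with 16 added it then passed (-0.61, adjusted p = 0.0196). Without DUhTP replicate 1 it was -0.26 (adjusted p = 0.520), and that of 1433966_x_at was -0.18 (adjusted p = 0.532).

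Psat1, a transaminase of serine synthesis, was dim on both probe sets. It read 14.1, 21.8 and 20.5 in DUhTP mice, against 20.4, 16.6 and 15.7 in DUC mice on 1454607_s_at (log2 fold change 0.08, 95% interval -0.43 to 0.60). On 1451064_a_at the intensity was between 1.81 and 10.7 in DUhTP and between 1.65 and 5.56 in DUC mice, and the interval of the log2 fold change was -0.96 to 2.88. No line difference in Psat1 was detected on either probe set, with a far wider interval on the dimmer one.

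Sesn2, a sestrin that lowers mTORC1 activity when leucine is scarce, had 2 probe sets, and both read lower in DUhTP mice on average without passing. Probe set 1451599_at read 63.4, 70.2 and 49.1 in DUhTP mice, against 74.2, 88.5 and 82.6 in DUC mice, so that the lines did not overlap (log2 fold change -0.44, 95% interval -0.85 to -0.02, adjusted p = 0.218). Probe set 1425139_at read 89.4, 99.0 and 78.0 in DUhTP mice, against 97.9, 96.4 and 96.0 in DUC mice, with overlap and a log2 fold change of -0.13 (95% interval -0.44 to 0.18).

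Chac1, which degrades glutathione and is induced by ATF4 and CHOP, read 69.2, 140.4 and 107 in DUhTP mice, against 66.3, 81.2 and 83.8 in DUC mice. DUhTP replicates 2 and 3 lay above all DUC arrays and DUhTP replicate 1 among them. The log2 fold change was 0.40 and did not pass (95% interval -0.28 to 1.08, adjusted p = 0.460). It was 0.68 without DUhTP replicate 1 (adjusted p = 0.178) and 0.17 without DUhTP replicate 2 (adjusted p = 0.751).

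Fgf21 encodes a hormone that liver secretes upon fasting, protein restriction or ER stress, and its gene is a target of both ATF4 and the fatty acid receptor PPARA. It read 33.1, 39.9 and 40.1 in DUhTP mice, against 37.0, 35.7 and 35.5 in DUC mice. DUhTP replicates 2 and 3 lay just above and DUhTP replicate 1 just below all DUC arrays, and the log2 fold change was 0.06 (95% interval -0.24 to 0.36, adjusted p = 0.825).

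The members did not share 1 order of the DUhTP arrays, although DUhTP replicate 1 was the lowest DUhTP array for 6 of the 10 genes on their brightest probe set: Atf5, Ddit3, Asns, Chac1, Psat1 and Fgf21. Across the 45 pairs of genes the correlation of log2 intensity over the 6 arrays had a median of 0.06 and ran from -0.87 to 0.93, with 26 pairs above 0, which describes the same 6 arrays throughout. After the mean of each line was subtracted the median was 0.33, with 32 of the 45 pairs above 0. The 5 genes most like Trib3 over the 6 arrays, among 7681 probe sets of other genes with a mean intensity of at least 100, were Fbxo21, a ubiquitin ligase subunit (r = 0.998), Daxx, a histone chaperone (r = 0.997), Ogdh of the citric acid cycle (r = 0.993), the sterol exporter Abcg8 (r = 0.993) and Tbc1d8 (r = 0.993). This r includes the line difference, so genes picked by it tend to be lower in DUhTP mice, as each of the 5 was on average. Tbc1d8 had an FC near that of Trib3 (log2 fold change -1.27, adjusted p = 0.0324). Of the 7681 probe sets 458 had an r over 0.9, so an r of that size is not particular to these 5 genes.

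ATF4 binds a composite C/EBP-ATF response element, and the letters of its core were searched for in the promoters of the 10 genes. The core was written TGATGNAA, on either strand, in RefSeq promoter windows of GRCm38.p6 that run from 250 bases before to 50 bases after each start site. All 10 genes had a window and 5 held a match, against 4.51% of the 27025 genes with a window. The stretches that carry the match are shown because they show which of the 10 genes carry the letters near the start site. The genes were taken as targets of a pathway that acts through ATF4, so their share is a description and no test. Each is 30 bases 5′ to 3′ on the strand of its gene, with the match in capitals.
Atf3, chr1:191183425-191183454, minus strand: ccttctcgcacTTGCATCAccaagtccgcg
Chac1, chr2:119351038-119351067, plus strand: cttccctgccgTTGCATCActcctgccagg
Trib3, chr2:152344028-152344057, minus strand: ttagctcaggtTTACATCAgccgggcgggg
Asns, chr6:7693214-7693243, minus strand: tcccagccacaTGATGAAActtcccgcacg
Fgf21, chr7:45615611-45615640, minus strand: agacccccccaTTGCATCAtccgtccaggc
In Atf3, Chac1, Trib3 and Fgf21 the element is written in its reverse complement. The match began 193 bases before the start site in Chac1, 139 in Fgf21, 110 in Atf3 and 23 in Asns, and at base 15 of the transcript in Trib3. With C at the sixth base, TGATGCAA, 3 genes held a match (Atf3, Chac1 and Fgf21), against 1.03% of all genes. The genes with these letters did not share a direction in DUhTP mice: Trib3 was lower, Asns and Atf3 had log2 fold changes of -0.45 and -0.27, and Chac1 and Fgf21 had 0.40 and 0.06. Atf4, Atf5, Ddit3, Sesn2 and Psat1 held no match in these windows, which says only that the letters are not there. A match is a description and not a binding site.

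The wider pathway and genes beside it, such as PPARA targets and immediate early genes, were followed through 9 lists with 142 measured genes. The lists were written with earlier results of these arrays known. Of the 142 genes 9 fell and 1 rose in DUhTP mice, counted when at least 1 probe set of a gene passed. Of all 12393 genes 1.4% fell and 1.92% rose. Among the 9 that fell, 4 were in the list of FGF21 receptors and PPARA targets. The lists hold 280 probe sets in all. With 16 added 25 fell and 5 rose, while of all genes 6% fell and 5.31% rose. The median log2 fold change over the 142 genes was -0.11, and over all genes 0.00. Without DUC replicate 2 the count was 0, and without any other 1 array it was 3 or 4. Among all probe sets 1 was called without DUC replicate 2, against 546 with all arrays.

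**Figure D4:**
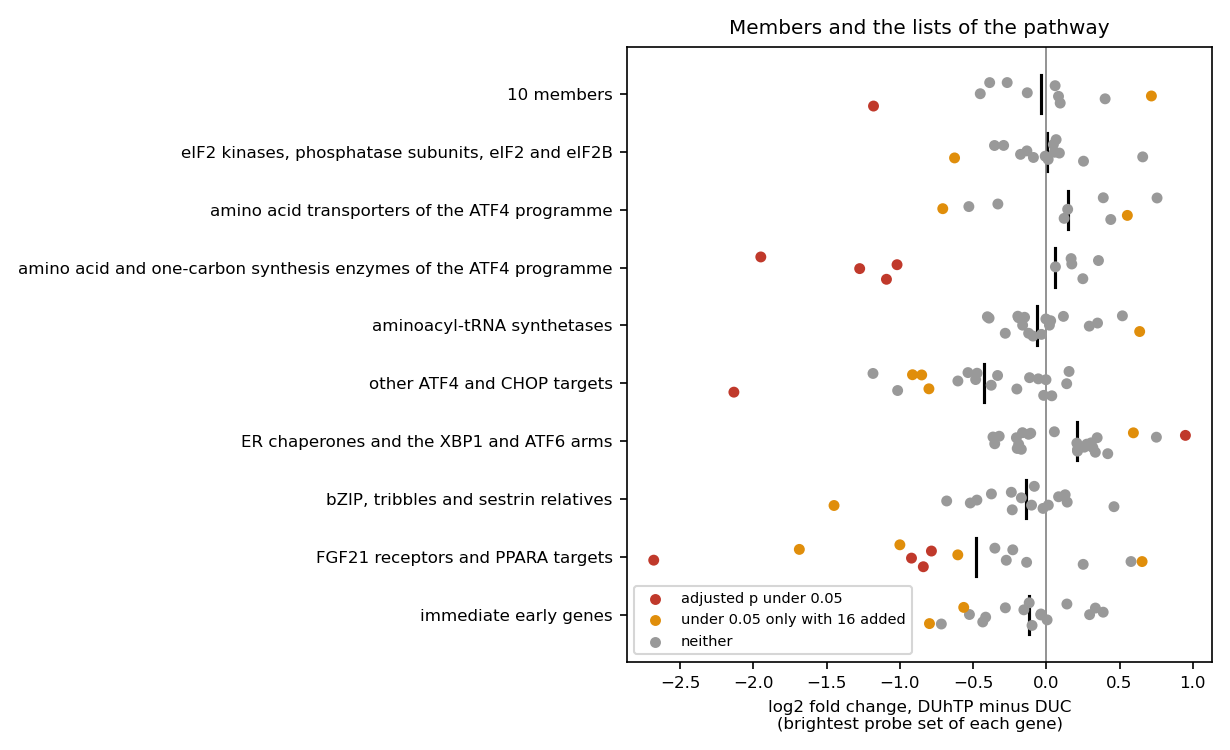
Log2 fold change, DUhTP minus DUC, of the brightest probe set of each measured gene, for the 10 members and the 9 lists, with the median of each list as a black line. Red points passed an adjusted p under 0.05, orange points only with 16 added, and grey points neither; the red points of the amino acid enzymes and of the PPARA targets lie below 0.

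Enzymes of amino acid metabolism that ATF4 can induce held 4 of the called genes, all lower in DUhTP mice like Trib3, of 9 measured. Among all genes 1.4% were called lower. The list as a whole did not lean lower: on the brightest probe sets 5 of the 9 genes lay above 0, with a median log2 fold change of 0.06. Cth, which makes cysteine from cystathionine, read 2841, 2837 and 2839 in DUhTP mice, against 5771, 5691 and 5804 in DUC mice (FC -2.03, adjusted p = 0.0141). Got1, the cytosolic aspartate transaminase, read 1324, 1539 and 1254 in DUhTP mice, against 5900.1, 5357 and 4660.0 in DUC mice (FC -3.86, adjusted p = 0.00945). Gpt2, the mitochondrial alanine transaminase, fell on all 3 of its probe sets, with 1519, 1407 and 1306 in DUhTP mice, against 2834, 3229 and 2952 in DUC mice on the brightest (FC -2.13, adjusted p = 0.0200). Pck2, mitochondrial phosphoenolpyruvate carboxykinase, read 67.5, 63.0 and 57.4 in DUhTP mice, against 119, 192 and 152 in DUC mice (FC -2.42, adjusted p = 0.0403). The lines did not overlap on the values shown for these 4 genes, and 15.8% of all probe sets lay lower in this way. All 4 kept their calls with 16 added and any 1 array left out. When no constant was added, only the omission of DUC replicate 2 took the call from Got1 (adjusted p = 0.0633), and it left 1 call among all probe sets. Cth lost its call without any 1 array other than DUhTP replicate 2 (up to 0.0885), and Gpt2 and Pck2 lost theirs without any 1 array (up to 0.145 and 0.151). The serine pathway enzymes next to Psat1 did not pass, with a log2 fold change of 0.25 for Phgdh and 0.17 for Shmt2.

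**Figure D5:**
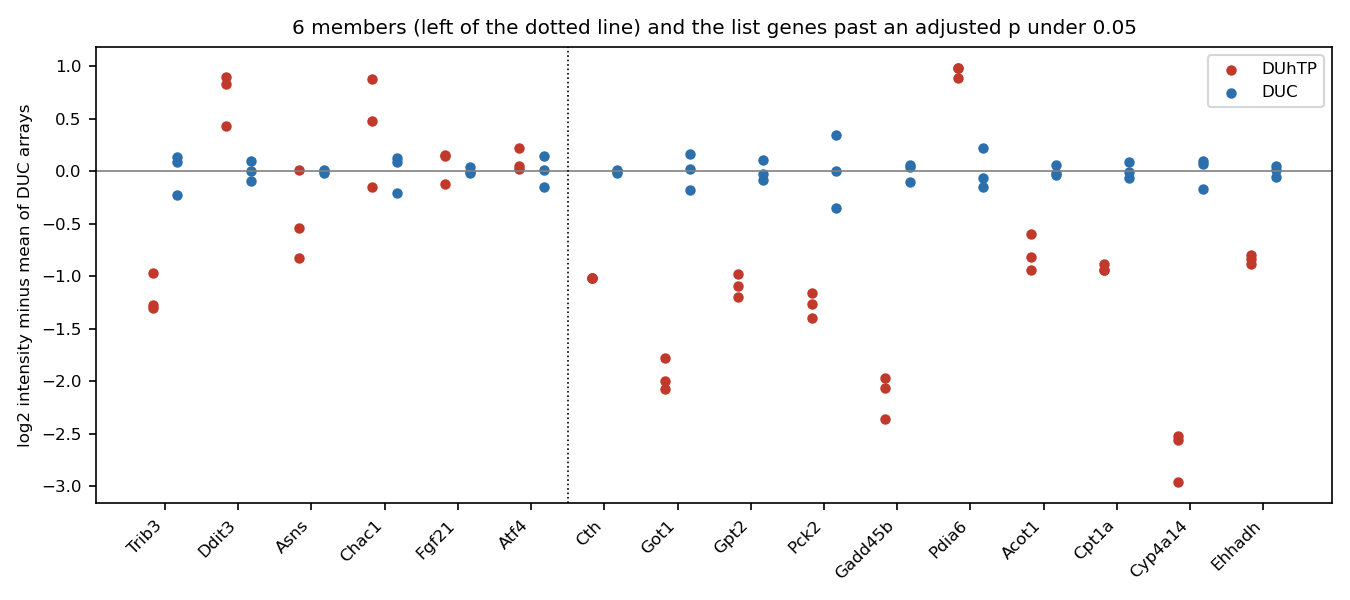
Log2 intensity of each array minus the mean of the DUC arrays, for 6 members (left of the dotted line) and for the 10 list genes past an adjusted p under 0.05, with DUhTP arrays in red and DUC arrays in blue, each gene on its brightest probe set. Trib3 lies about 1 unit below DUC on all 3 DUhTP arrays, as do Cth, Gpt2 and Pck2, while Fgf21 and Atf4 scatter around 0 and Cyp4a14 lies more than 2 units below.

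FGF21 receptors and targets of PPARA had 4 of 14 measured genes lower in DUhTP mice, and 0 higher, while Fgf21 itself differed little. Among all genes 1.4% were called lower and 1.92% higher. The fatty acid hydroxylase Cyp4a14 read 1034, 762 and 1011 in DUhTP mice, against 5289.5, 6239 and 6354 in DUC mice (FC -6.41, adjusted p = 0.00708). Also lower were Cpt1a, which controls fatty acid entry into mitochondria (FC -1.89, adjusted p = 0.0210), the peroxisomal enzyme Ehhadh (FC -1.79, adjusted p = 0.0238) and the thioesterase Acot1 (FC -1.72, adjusted p = 0.0448). Without a constant, Cyp4a14 lost its call without DUC replicate 2 (adjusted p = 0.0565), and Cpt1a, Ehhadh and Acot1 lost theirs without any 1 array. All 4 kept their calls with 16 added and any 1 array left out. Neither Ppara itself nor Acadm passed, with -0.23 and -0.35 on the log2 scale. With 16 added 7 of the 14 genes were lower and 1 higher, where 6% of all genes were lower and 5.31% higher. The co-receptor Klb was lower and the receptor Fgfr4 higher (log2 fold changes of -0.57 and 0.60, adjusted p = 0.0249 and 0.0308). Both were chosen after their values were seen, and their calls were lost without 3 and 4 of the 6 arrays. Vnn1 and Pdk4 were also lower, and kept these calls in 6 and 4 of 6 omissions of an array.

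The list of other ATF4 and CHOP targets had 1 of 20 measured genes lower, where 1.4% of all genes were. The gene was Gadd45b, a stress-inducible growth arrest gene. It read 99.8, 76.2 and 93.6 in DUhTP mice, against 403, 408 and 366 in DUC mice (FC -4.39, adjusted p = 0.00708), and its call was lost on this probe set when DUC replicate 2 was omitted (0.0565) and at no other array. Of the 20 genes 17 had a log2 fold change below 0, with a median of -0.42. With 16 added 5 were lower, where 6% of all genes were. Among the 5 were Cebpb and Cebpg, whose products pair with ATF4 and CHOP (log2 fold change -0.90 and adjusted p = 0.00953 for Cebpb). Cebpb kept this call in 5 of 6 omissions of an array and Cebpg in 2. Herpud1, a component of ER-associated degradation, varied widely within each line, at 2109.7, 4429.9 and 3199 in DUhTP mice, against 1684, 4203 and 3166 in DUC mice, and Sqstm1, an autophagy receptor, had a log2 fold change of -0.02.

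ER chaperones and the XBP1 and ATF6 arms had 1 of 25 measured genes higher and 0 lower, where 1.92% of all genes were higher and 1.4% lower. Pdia6, a disulfide isomerase of the ER, read 1395, 1488 and 1493 in DUhTP mice, against 721, 879.7 and 679 in DUC mice (FC 1.93, adjusted p = 0.0329), and lost its call without any 1 array (adjusted p up to 0.135), but not with 16 added. The chaperone Hspa5, the usual reporter of ER stress, read 2904, 2755 and 3002 in DUhTP mice, against 3128, 4250.1 and 3759 in DUC mice. All DUhTP arrays were lower, but the log2 fold change of -0.35 did not pass (adjusted p = 0.240), and P4hb had a log2 fold change of 0.21. Unlike Hspa5, most of the list lay above 0: 15 of the 25 genes on their brightest probe sets, against 10 below, with a median log2 fold change of 0.21. With 16 added 2 genes were higher and 0 lower, where 5.31% of all genes were higher and 6% lower.

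Of the remaining lists none held a called gene in limma without a constant. At an unadjusted p under 0.05 they held 5 genes of eIF2 and its regulators, 3 transporters, 6 synthetases, 4 relatives of the members and 6 immediate early genes, together 24 of 74, where 27.4% of all genes had at least 1 such probe set. With 16 added 11 of these 74 genes passed, where 11.3% of all genes did. Among 14 genes of eIF2, its kinases, phosphatase subunits and exchange factor, 2 were lower with 16 added, of which Eif2s2, the beta subunit of eIF2, read 659, 557 and 698 in DUhTP mice, against 999.5, 959 and 983 in DUC mice on its brightest probe set (adjusted p = 0.0661 without and 0.0122 with 16 added). The 5 other probe sets of Eif2s2, with log2 fold changes of -0.48 to 0.17, did not pass, and the call was kept in 3 of 6 omissions of an array. Dnajc3, an inhibitor of eIF2 kinases, had a log2 fold change of -0.29 on its brightest probe set. On its other probe sets it was between -0.90 and -0.61, and none passed with or without 16 added. Among 9 amino acid transporters Slc3a2, the heavy chain of several exchangers, was higher and Slc38a2, a sodium-coupled neutral amino acid transporter, lower with 16 added (log2 fold changes of 0.53 and -0.69, adjusted p = 0.0130 and 0.0147; 0.0555 and 0.0817 without), and each kept the call in 4 of 6 omissions. Of 18 aminoacyl-tRNA synthetases 1 was higher and 1 lower with 16 added, each kept in 1 of 6 omissions, and the bright Aars and Nars had log2 fold changes of 0.35 and -0.12. Of 16 relatives of the members among bZIP factors, tribbles and sestrins 0 were higher and 3 lower with 16 added, among them Cebpd (FC -2.54, adjusted p = 0.00342; 0.0552 without), which kept the call in 6 of 6 omissions, while the bright Creb3l3 and Cebpa had log2 fold changes of 0.01 and -0.08. Of 17 immediate early genes, the class Atf3 belongs to, 2 were lower with 16 added, Jund among them (log2 fold change -0.55, adjusted p = 0.0438), a call lost whichever array was omitted (adjusted p up to 0.130), and Dusp1 had a log2 fold change of 0.14.

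The arrays carried the mRNAs of hepatocytes in both lines, with log2 fold changes of -0.03 for Alb, 0.00 for Apoa1 and -0.01 for Apoa2. Of 8 measured hepatocyte markers 6 lay below 0, and only Tat, tyrosine aminotransferase, passed, lower in DUhTP mice (FC -1.84, adjusted p = 0.0370). The sum of the 8 was lower on every DUhTP array, at 91180 to 92155, against 96746 to 100898 in DUC mice. In the remaining marker lists Col3a1 of 7 stellate cell and fibroblast genes and Alas2 of 3 erythroid genes rose (FC 1.91 and 1.85, adjusted p = 0.0434 and 0.0499), while Dcn, Col1a2, Hba-a1 and Epb42 did not pass. No gene passed among 9 markers of leukocytes (the brightest Ms4a1, Ptprc and S100a8), 7 of endothelium (Clec4g, Stab2 and Tek), 5 of cholangiocytes (Sox9, Krt19 and Cldn4) and 3 of adipocytes (Retn, Lep and Adipoq). At an unadjusted p under 0.05 they held 1, 1, 0 and 0 genes in this order. With 16 added 1 endothelial marker, Stab2, was higher (adjusted p = 0.0437), a call lost whichever array was omitted. Marker sums, in which bright probe sets weigh most, were higher on every DUhTP array for endothelium (2798 to 3113, against 2510 to 2672 in DUC mice) and erythroid cells (1245 to 1624, against 741 to 828). Of the 3 erythroid genes, however, 2 lay below 0 and 1 above on their brightest probe sets, with a median log2 fold change of -0.08. Of the 7 endothelial genes 2 lay below 0 and 5 above. The sums of leukocyte, stellate cell and fibroblast, cholangiocyte and adipocyte markers overlapped between the lines. The calls of Tat, Clec4f, Col3a1 and Alas2 were lost without any 1 array when no constant was added (adjusted p up to 0.139, 0.137, 0.152 and 0.166) and kept in 6 of 6 omissions with 16 added.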

How the data were processed

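Liver RNA of 3 DUhTP and 3 DUC arrays was analysed. Before deposit, the authors applied global scaling (GCOS 1.1.1) and the PLIER algorithm in Array Assist. The deposited values are intensities on a linear scale, without detection calls; whether a constant was added is not given in the sources used here. Array medians ran from 53.1 to 57.0, and the number of arrays limits the precision. Without 64 control probe sets, log2 intensities were compared in limma 3.58.1 (R 4.3.3; lmFit, eBayes, no block), a procedure tested on simulated data. Symbols are those of the array annotation; coordinates and promoters are from RefSeq (GRCm38.p6). The members, lists and rules were chosen with earlier results of these data known. Named were all members, up to 4 called genes and the 2 brightest others of each pathway list (3 for markers), and the 5 genes most like the member with the largest moderated t. Other names were chosen after their values were seen. Alternatives were 16 added, quantile normalization, dropping the dimmest 33.3% of probe sets or those that can cross-match, limma-trend, array weights, a replicate block, omitting each array, unadjusted p, an FC over 2 and a stricter motif. Omitting arrays or blocking with 16 added was chosen after seeing the data.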

Additional observations from a re-analysis of the deposited data

How the results depend on the processing

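Of all probe sets 546 were called, 308 higher and 238 lower in DUhTP mice. The count was 1951 with 16 added (888 higher, 1063 lower), 1851 without the dimmest 33.3% of probe sets, 2350 with limma-trend (1066 higher, 1284 lower), 4769 at an unadjusted p under 0.05 and 327 at an FC over 2. Leaving out 1 array gave 1 to 122, and with 16 added it gave 1591, 1570 and 1530 without DUhTP replicates 1, 2 and 3, and 961, 771 and 773 without DUC replicates 1, 2 and 3. Of the member probe sets 2 were called. The count was 1 with quantile normalization (1456225_x_at of Trib3, adjusted p = 0.0544, was lost), 1 when cross-matching probe sets were dropped, 4 at an unadjusted p under 0.05, 0 without any 1 array, and 2 or 3 with 16 added and 1 array left out. Ddit3 passed without the dimmest probe sets and with limma-trend as well (adjusted p = 0.0213 and 0.0202). Of the list genes 10 were called. The count was 30 with 16 added, 29 without the dimmest probe sets, 34 with limma-trend, 53 at an unadjusted p under 0.05, 0 to 4 without 1 array, and with 16 added 22, 26 and 27 without DUhTP replicates 1, 2 and 3, and 16, 15 and 16 without DUC replicates 1, 2 and 3. The motif matched 3 rather than 5 members with C at its sixth base.

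Same-numbered arrays had deviations correlated at 0.00 to 0.07, and 2 of 6 arrays correlated best with their own number. With 3 arrays a line these values cannot settle whether the replicate numbers pair the arrays. A replicate block gave 0 calls among all probe sets, the members (Trib3 adjusted p = 0.121 and 0.115) and the list genes, and with 16 added it gave 1800, 3 and 33.

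Signs turned only near 0. The log2 fold change of 1438992_x_at of Atf4 was 0.17 and 0.017 without DUhTP replicate 2 and without DUC replicate 3 (0.16 and 0.017 with 16 added), with a range of -0.22 to 0.17 over the omitted arrays. That of 1454607_s_at of Psat1 was -0.020 with array weights and -0.035 without DUhTP replicate 2 (-0.014 with 16 added), with a range of -0.035 to 0.28. The causes were not tested. Dim probe sets (Psat1, Atf3, 1439258_at of Atf4) limit what can be seen.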
